A study of Rattus norvegicus with 8 samples.

Results

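Sensory neuropeptides are small signalling peptides that peripheral sensory neurons store in dense-core vesicles and release from both their central and their peripheral endings. The genes were described in the nodose ganglia of the rat, the paired ganglia of the vagus nerve. Members were the 9 genes named Calca, Calcb, Tac1, Cartpt, Vip, Gal, Adcyap1, Sst and Nmb, taken by gene name from a table of 30560 genes. All 9 were found.

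Nuclei came from experimentally naive Long Evans rats aged 8 weeks, 18 male and 18 female, with no genetic change and no agent other than anaesthetic. Left and right ganglia were kept apart and pooled from 6 rats each, which gave 3 pools for each of 4 groups, male left (ML), male right (MR), female left (FL) and female right (FR), 12 pools in all. Both sides came from the same rats, but the labels do not say which left pool shares rats with which right pool, so p-values treat the pools as independent. Nuclear RNA was barcoded by Parse Evercode split-pool chemistry and divided over 8 sublibraries, so that every sublibrary held nuclei of every pool.

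Of 36741 nuclei, 36738 were kept, and clusters were named from marker genes that left out all 9 members. There were 25602 neurons in 22 subclusters, called n0 to n21. Pools held 1738 (FL2) to 4849 (FR3) nuclei, 7139364 (ML2) to 19456287 (FR3) unique molecular identifiers (UMIs, each a counted RNA molecule) and 1269 to 3610 neurons. The median number of UMIs per neuron was 2075 (MR3) to 3219.5 (ML1) in male-labelled pools and 2760.5 (FR2) to 3930 (FL1) in female-labelled pools. Sex-linked genes went against the label in 2 pools: in CPM, UMI counts scaled to a common library total, Y-linked genes stood at 2.88 in ML1, labelled male, and reached 88.6 in FL1, labelled female. Results by sex are therefore given as labelled, and again without these pools. No full barcode occurred more than once, and 3808 nuclei shared their well combination with a nucleus of another sublibrary.

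The vagal sensory ganglion of the rat joins the placode-derived nodose ganglion, whose neurons commonly express the purinergic receptor gene P2rx2, and the crest-derived jugular ganglion, whose neurons express the transcription factor gene Prdm12. Calca and Calcb encode the calcitonin gene-related peptides and Tac1 encodes substance P and neurokinin A, the classic peptides of nociceptors, which dilate vessels and sensitise tissue on release. Adcyap1 and Vip encode the related peptides PACAP and VIP, Cartpt encodes the feeding-related peptide CART, and Gal, Sst and Nmb encode galanin, somatostatin and neuromedin B.

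Markers split the neurons into 9040 nodose-like nuclei in 6 subclusters (n1, n3, n6, n9, n12 and n13), 1618 jugular-like nuclei in n7 (1440) and n21 (178), and 14944 neurons in subclusters left unnamed. In n7, Prdm12 stood at 113 CPM and P2rx2 at 17.7 CPM, and the leading genes were Gfra3, Adamts16, Ranbp3l, Sytl3 and Asic1. The nodose-like subclusters held P2rx2 at 47.7 (n9) to 170 (n13) CPM. Subcluster n12, led by Spp1, Kcna1 and Nefh, also held Prdm12 at 21.9 CPM, and its marker profile was mixed. Named non-neuronal nuclei were 3920 satellite glia, 2273 myelinating Schwann cells, 1279 endothelial cells, 568 skeletal muscle nuclei and 292 fibroblasts. A further 2804 nuclei stayed unnamed, 1415 of them from 4 neuron subclusters led by genes of another class.

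The sequences upstream of Calca, Tac1 and Cartpt are shown because the levels of these genes differed between the jugular-like n7 and the nodose-like n6 and n3, as described next. Each line gives the 250 bases before the annotated start, 5′ to 3′ on the gene's strand, from RefSeq on build GRCr8. Capitals mark the cyclic AMP response element (TGACGTCA) or, where that is not present, its shorter core (TGACG, or CGTCA on the other strand). Calca lies on chr1:178317530-178317779, minus strand, Tac1 on chr4:36645333-36645582, plus strand, and Cartpt on chr2:32991236-32991485, minus strand.
Calca: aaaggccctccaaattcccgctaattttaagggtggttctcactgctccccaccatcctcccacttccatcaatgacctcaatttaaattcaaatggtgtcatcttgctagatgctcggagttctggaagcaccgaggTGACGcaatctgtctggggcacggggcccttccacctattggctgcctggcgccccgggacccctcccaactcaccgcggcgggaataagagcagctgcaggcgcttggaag
Tac1: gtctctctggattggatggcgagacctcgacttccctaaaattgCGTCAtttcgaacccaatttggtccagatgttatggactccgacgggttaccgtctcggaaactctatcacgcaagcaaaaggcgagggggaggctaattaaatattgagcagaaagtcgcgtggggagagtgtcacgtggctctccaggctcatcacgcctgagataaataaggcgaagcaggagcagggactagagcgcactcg
Cartpt: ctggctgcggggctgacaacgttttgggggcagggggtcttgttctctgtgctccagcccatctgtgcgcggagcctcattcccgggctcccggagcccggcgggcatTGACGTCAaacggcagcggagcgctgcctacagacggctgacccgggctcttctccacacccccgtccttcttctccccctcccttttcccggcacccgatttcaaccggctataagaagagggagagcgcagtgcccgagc
The full element TGACGTCA was found upstream of Cartpt, 142 bases before the start, and 1.59% of 33469 rat promoter windows of 250 bases held it. Calca and Tac1 each held 1 such core, 112 and 206 bases before the start. The core, which is also part of the full element, occurred on either strand in 18.2% of the windows. RefSeq entries were matched for 8 of the 9 members, and a match of letters describes the sequence only.

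The neuropeptide genes divided over the neuron subclusters. Calca and Tac1 were concentrated in the jugular-like subcluster n7, while Cartpt was more spread and reached its highest levels in the nodose-like subclusters n6 and n3. Subcluster n7 held 5.62% of neurons and 6.33% of all neuron UMIs, but 82.4% of the Calca and 82.0% of the Tac1 UMIs of neurons. It held 47.2% of those of Calcb, 17.5% of those of Adcyap1 and 1.16% of those of Cartpt. Of the Cartpt UMIs of neurons, 30.5% lay in n6, 19.3% in n1 and 17.4% in n3. These subclusters held 10.9%, 14.8% and 6.7% of all neuron UMIs. Levels across subclusters are described without a test, as CPM of the summed UMIs.

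**Figure D1:**
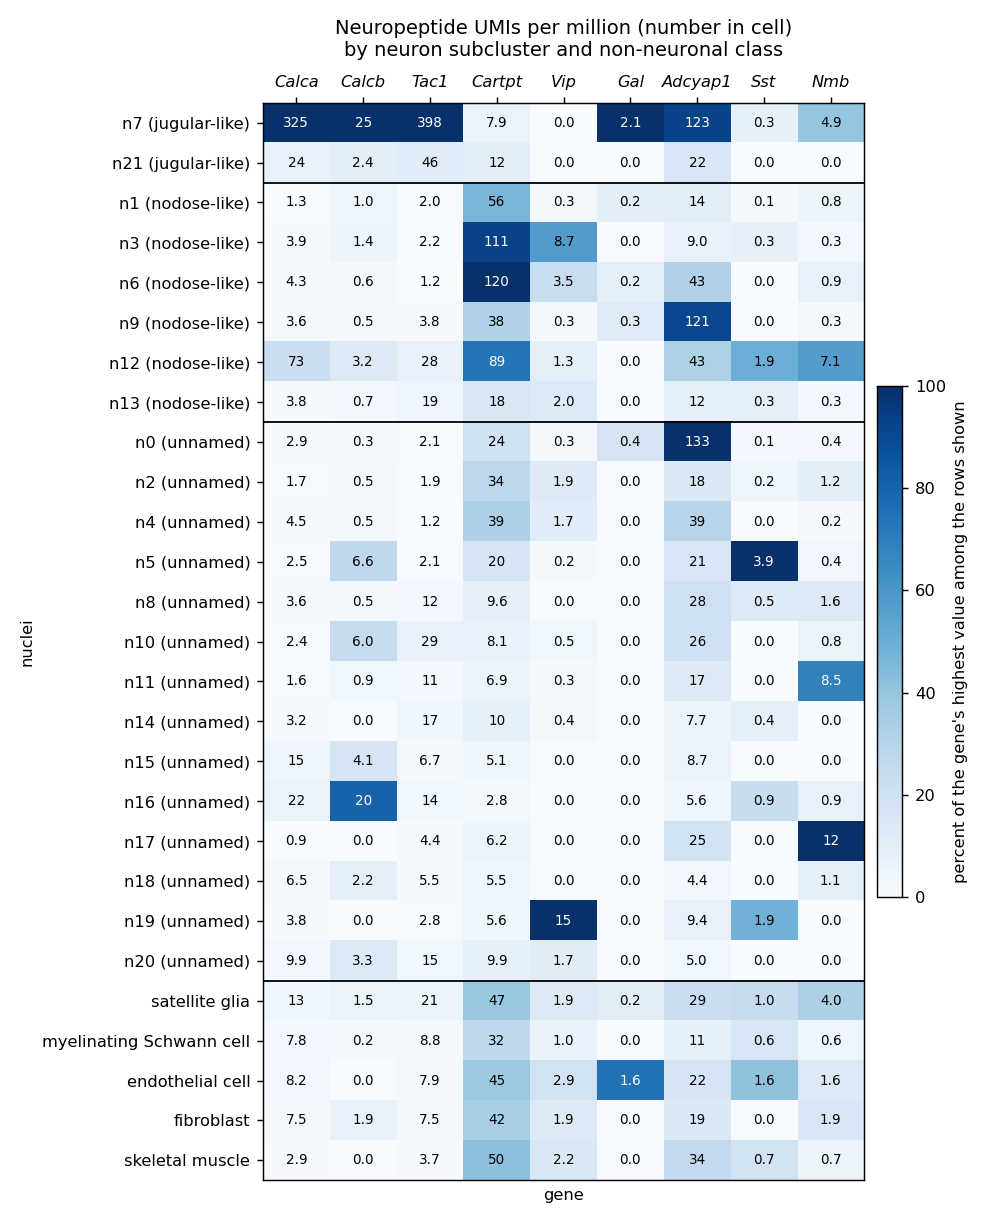
Level (CPM) of each neuropeptide gene (columns) in the 22 neuron subclusters and 5 non-neuronal classes (rows), with colour as the percent of the gene's highest value among the rows. Calca and Tac1 are dark in n7 alone (325 and 398 CPM), Cartpt in n6, n3 and n12, and Adcyap1 in n0, n7 and n9.

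Calca, which encodes the alpha form of the calcitonin gene-related peptide, stood at 325 CPM in n7, and the pools ranged from 183 (ML3) through a median of 324 to 614 (FR2). Next in order were n12 (72.7 CPM), n21 (24.0), n16 (21.5) and n15 (15.4), and the median over the 22 subclusters was 3.75 CPM. In n12 the pools ranged from 0 (ML3) to 260 (ML1), and 113 UMIs lay in 35 nuclei. The pool ranges of n12 and n7 overlap. Among pools with at least 20 nuclei, n21 and n16 reached at most 48.3 and 48.1 CPM, below every pool of n7. Some pools of n21 and n16 held fewer nuclei and were left out. At least 1 Calca UMI was counted in 662 n7 nuclei (46.0%), and the highest count in 1 nucleus was 58.

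Tac1 was also highest in n7, at 398 CPM, where pools ranged from 259 (MR2) through 387 to 583 (FR2). It stood at 45.5 CPM in n21, the Trpm8-led jugular-like subcluster, at 29.0 in n10, led by Spon1 and by Tacr1, the substance P receptor gene, and at 28.3 in n12. Pool means were 26.6 ± 15.3 CPM (SD, n = 12) in n10 and 25.2 ± 17.1 (SD, n = 12) in n12, so these neighbours did not differ beyond their spread. At least 1 Tac1 UMI was present in 724 n7 nuclei (50.3%).

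Calcb encodes the beta form of the same peptide and lies next to Calca, so reads from stretches that the genes share could have been split between them. Its highest level was again in n7 (24.6 CPM, pools 5.56 to 34.3), followed by n16 (19.7), led by Il31ra, n5 (6.60) and n10 (5.96). Over the pools with at least 20 nuclei, n7 had a mean of 23.0 ± 9.35 CPM (SD, n = 12) and n16 one of 18.9 ± 15.1 (SD, n = 7), so the first 2 places were not separated. Of its neuron UMIs, 19.2% lay in n5.

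Adcyap1, the PACAP gene, was high in 3 subclusters of different kinds. It stood at 133 CPM in the unnamed subcluster n0, led by Fhip1a and Col27a1, at 123 CPM in n7 and at 121 CPM in the nodose-like n9, led by Edn3 and Chrdl1. Pool means were 129 ± 29.3, 123 ± 47.8 and 118 ± 21.8 CPM (SD, n = 12 each), so their order is not resolved. These 3 subclusters held 33.4%, 17.5% and 11.1% of its neuron UMIs. The lowest level was 4.36 CPM, in n18.

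Vip is related to Adcyap1 in sequence but was placed elsewhere and was sparse, with 150 UMIs in 113 neurons. The nodose-like n3, led by Xylt1, Sctr and Cckar, held 37.3% of them and n6 held 24.7%. Their levels were 8.67 CPM (56 UMIs in 39 nuclei) and 3.51 CPM. The highest value, 15.0 CPM in n19, rested on 16 UMIs in 5 nuclei, 11 of them in 1 nucleus, and the mean over its 8 pools with at least 20 nuclei was 4.27 CPM. No Vip UMI was found in the 1440 n7 nuclei, which allows a level of up to 0.491 CPM (3 UMIs, counting error only).

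Cartpt was led by nodose-like neurons: n6 (120 CPM), whose leading genes include S1pr3 and Trpa1, then n3 (111), n12 (88.8) and n1 (55.8). Pool means of 111 ± 37.1 in n6, 108 ± 47.1 in n3 and 82.0 ± 32.6 CPM in n12 (SD, n = 12 each) lie within each other's spread. In n7 it stood at 7.86 CPM, below the median subcluster at 11.2 CPM.

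Gal, Sst and Nmb were near the limit of detection, with 23, 53 and 134 UMIs in all neurons. Of the Gal UMIs, 56.5% lay in n7, where the level was 2.13 CPM. Of the Sst UMIs, 67.9% lay in n5, led by Cysltr2, at 3.89 CPM. Nmb was highest in n17 (12.4 CPM from 14 UMIs), followed by n11 (8.51) and n12 (7.08), and the pools ranged from 0 to 41.4 CPM in n17 and from 0 to 31.1 in n11.

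Neuropeptide RNA was also counted in nuclei that are not neurons. Named non-neuronal nuclei held Calca at 10.6 CPM, Calcb at 0.949, Tac1 at 15.2, Cartpt at 43.4, Vip at 1.90, Gal at 0.371, Adcyap1 at 24.6, Sst at 0.949 and Nmb at 2.72. The same nuclei held the neuronal genes Snap25 and Scn10a at 995 and 360 CPM. In every non-neuronal class Cartpt made up 39.3% (satellite glia) to 52.7% (skeletal muscle) of the members' UMIs. For Cartpt, Vip, Gal, Sst and Nmb the level over all neurons (42.8, 1.55, 0.238, 0.549 and 1.39 CPM) was no higher than in the non-neuronal nuclei, and only 4, 4, 1, 3 and 4 of the 22 subclusters exceeded it. The count was 5 for Calca, 11 for Calcb, 6 for Tac1 and 9 for Adcyap1.

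To set depth aside, each nucleus was thinned to 1000 UMIs and the share of nuclei with a UMI was compared with that in endothelial and muscle nuclei, which were taken as background. The 1648 endothelial and muscle nuclei that could be thinned (199 were too shallow, against 61 in n7) gave 0.607% for Calca, 0.546% for Tac1, 3.70% for Cartpt and 2.00% for Adcyap1. In n7 the shares were 23.5% (95% exact binomial interval 21.3 to 25.8) for Calca, 25.4% (23.1 to 27.8) for Tac1 and 10% (8.47 to 11.7) for Adcyap1. Unthinned, the Calca shares were 46.0% in n7 (median 3122 UMIs) and 1.52% in the endothelial and muscle nuclei (median 1785 UMIs). For Cartpt, n6 reached 9.76% (8.34 to 11.3) and n3 8.48% (7.19 to 9.90), while n7 at 1.02% lay below this background. So did n8 at 0.782% and n10 at 0.538%, and the background share was therefore not a floor for neurons. These intervals cover counting error only.

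**Figure D2:**
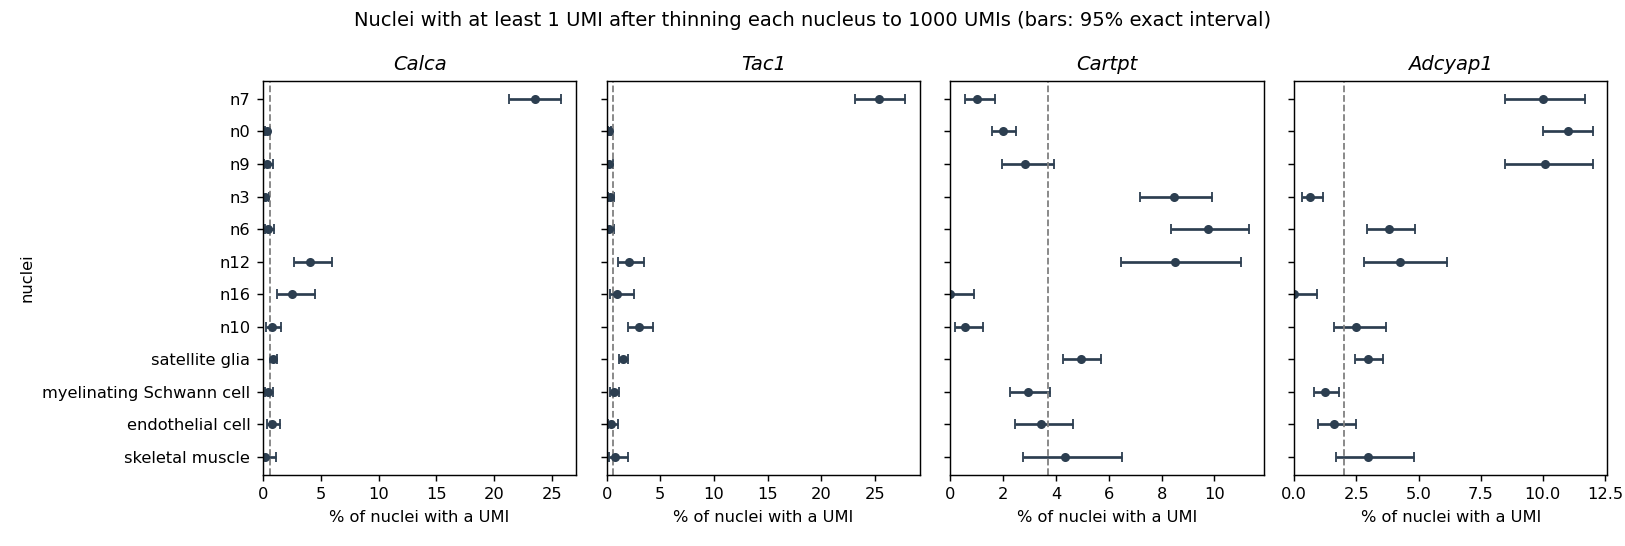
Percent of nuclei with at least 1 UMI of a gene after thinning to 1000 UMIs, by subcluster or class, with 95% exact intervals; the dashed line is the share in endothelial and muscle nuclei together. Calca and Tac1 rise above the line in n7 by far the most (23.5% and 25.4%), Cartpt in n6, n3 and n12, and Adcyap1 in n0, n9 and n7.

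Intervals lay wholly above that of the background in n7, n12 and n16 for Calca, in n16 and n7 for Calcb, in n7, n10 and n12 for Tac1 and in n6, n12 and n3 for Cartpt. For Adcyap1 they did so in n0, n9, n7, n12, n6 and n4. Satellite glia, the largest non-neuronal class, had higher shares than endothelial and muscle nuclei, at 0.864% for Calca, 1.56% for Tac1, 4.96% for Cartpt and 2.96% for Adcyap1. Against satellite glia, a comparison added after seeing the data, the subclusters left were n7 and n12 for Calca, n7 for Tac1 and n0, n9 and n7 for Adcyap1, and those for Calcb and Cartpt did not change. Against fibroblasts, the smallest class, with wide intervals, they were n7 for Calca and Tac1, n6 for Cartpt, none for Calcb and n0, n9 and n7 for Adcyap1. Against myelinating Schwann cells they were n7 and n10 for Tac1. Those for Calca, Calcb, Cartpt and Adcyap1 were the same as against endothelial and muscle nuclei. No subcluster met this for Vip, Gal or Sst against any of these classes. At this depth these genes were therefore not separable from background by the share of nuclei. For Nmb, n12, n17 and n11 met it against myelinating Schwann cells only.

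Calca and Tac1 were also found together within single nuclei. Among 24557 neurons thinned to 1000 UMIs, 428 held Calca, 480 held Tac1 and 119 held both, which is 27.8% of the first and 24.8% of the second. The product of the single shares gives 8.37 neurons, a ratio of 14.2 (12 at 2000 UMIs). Of the 119 nuclei with both, 112 lay in n7, and within n7 alone the ratio was 1.36. The ratio within n7 ranged by pool from 0.646 (FR2, 2 nuclei with both) to 1.81 (ML3, 2 nuclei with both). Calca met Adcyap1 in 50 neurons (ratio 2.80) and Cartpt in 8 (ratio 0.594), and Tac1 met Cartpt in 6 (ratio 0.397).

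Likeness across the 22 subclusters was taken as Pearson's r of log2(CPM + 5), as a description over subclusters that share libraries and differ in depth. Calca was most like Gfra3, the receptor gene for artemin (r = 0.91, and 0.78 without n7), then Sytl3 (0.79, and 0.57 without n7) and Npy1r (0.79, and 0.49). Tac1 was most like Asic1, an acid-sensing channel gene (0.82, and 0.78 without n7), Gfra3 (0.81, and 0.54) and Npy1r (0.80, and 0.52). The r of Tac1 with Calca was 0.82, or 0.56 without n7. Calcb was most like Tmem233 (0.86), Gna14 (0.86) and Lrrk1 (0.85). Cartpt was most like Syt15 (0.89), Sertm1 (0.87) and Abcb6 (0.86), and its r was −0.09 with Calca and −0.34 with Tac1. Adcyap1 was most like Ripor1 (0.84), Steap3 (0.78) and Sp110 (0.74), and Vip was most like Gucy1a1 (0.76), Arl6 (0.75) and Pdcl3 (0.73). For Gal, Sst and Nmb the highest r were 0.89 (Bcl11a, 0.53 without n7), 0.68 (Hnrnpc) and 0.72 (Eif2s1), on few UMIs.

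Receptors for the members were measured for 19 of 22 listed genes. The 3 highest in neurons were Tacr1, the substance P receptor (14.7 CPM, and 173 in n10), Calcrl, the shared receptor of calcitonin gene-related peptide and adrenomedullin (8.23 CPM, and 60.1 in n14), and its partner Ramp3 (7.99 CPM, and 19.4 in n5). The galanin receptor gene Galr1, named after its values were seen, stood at 35.5 CPM in n7, the subcluster that also held most Gal UMIs. Among 21 measured genes of other peptides, Bdnf (44.8 CPM), Nucb2 (33.3) and Edn3 (6.35, and 92.3 in n9) were highest in neurons. Of 23 processing and dense-core vesicle genes, Cadps (1450 CPM), Ptprn2 (647) and Sv2c (545) were highest. The granin gene Scg2, also named after its values were seen, was highest in n7 (722 CPM against a subcluster median of 174).

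Pools differed widely in Calca and Tac1 and far less in Adcyap1. Over all neurons Calca ranged from 5.10 CPM (ML3) through a median of 18.9 to 72.5 (ML1), 14.2-fold, and Tac1 from 8.78 (ML3) through 24.3 to 75.3 (ML1), 8.58-fold. The coefficients of variation were 79.8% for Calca, 69.4% for Tac1, 37.7% for Cartpt and 20.1% for Adcyap1. Across the 8 sublibraries, each of which held different nuclei of the same pools, the corresponding figures were 14.3%, 11.5%, 8.64% and 5.96%.

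The share of n7 among a pool's neurons moved with both genes. It was 1.32% in FL1, 1.40% in ML3 and 1.47% in FR2, and 11.0% in FL2 and 14.5% in ML1. These pools were also the lowest or the highest in Calca and Tac1, except that FR2 stood at 15.4 CPM for Calca, between MR2 (14.4) and MR1 (16.6). Outside n7 the coefficient of variation was 68.3% for Calca (1.85 to 13 CPM, highest in ML1) and 29.3% for Tac1 (2.29 to 8.61 CPM). Inside n7 it was 36.8% and 27.1%. Prdm12, the jugular marker gene, ranged over all neurons from 3.06 CPM (ML3) to 30.6 CPM (ML1), and its part in the spread of Calca and Tac1 was not tested.

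**Figure D3:**
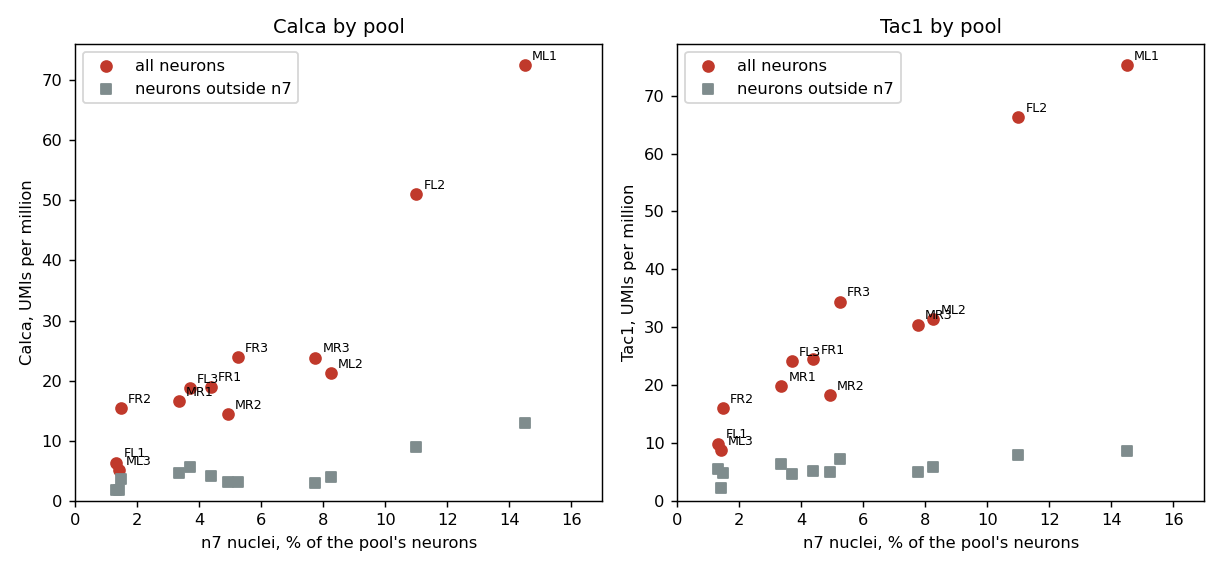
Calca (left) and Tac1 (right) in each of the 12 pools, in CPM, against the percent of the pool's neurons that belong to n7. In all neurons (circles) the pools with 11.0% and 14.5% of n7 are the highest for both genes, while outside n7 (squares) no pool exceeds 13 CPM for Calca or 8.61 CPM for Tac1.

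Left and right ganglia were compared with UMIs summed per pool, in edgeR's quasi-likelihood test with labelled sex as a second term and Benjamini-Hochberg adjustment over all genes tested. No neuropeptide gene was called by side. In all neurons 0 of 7 tested members were called at an adjusted p under 0.05 (0 at an unadjusted p under 0.05, 0 by DESeq2 of the 4 to which it gave an adjusted p), where 0.122% of 13981 genes were called. In nodose-like neurons 0 of 5 were called (1 unadjusted, 0 by DESeq2 of the 2 with an adjusted p) beside 0.924% of 12236 genes. In jugular-like neurons 0 of 4 were called beside 0% of 7161 genes, and in unnamed neurons 0 of 5 beside 0% of 12670 genes. In both of those comparisons 0 members had an unadjusted p under 0.05 in edgeR. DESeq2 called 0 of 4 members in jugular-like neurons, whereas in unnamed neurons it gave an adjusted p to Adcyap1 alone, which was not called. Over all genes the unadjusted counts were 241 and 891 and the DESeq2 calls 0 and 14.

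Calca in neurons ranged from 5.23 (ML3) through 19.9 to 73.2 (ML1) normalised CPM in left pools and from 14.4 (MR2) through 17.9 to 24.3 (MR3) in right pools. The left pools enclosed the right pools, and the log2 difference, right over left, was −0.64 (SE 0.47, edgeR's quasi-likelihood test, adjusted p = 0.838). For Tac1 it was −0.60 (SE 0.43, adjusted p = 0.836 in the same edgeR fit) and for Cartpt 0.30 (SE 0.17, adjusted p = 0.793). Adcyap1 in nodose-like neurons, which passed before adjustment, stood at −0.28 (SE 0.13, adjusted p = 0.467 in edgeR). In the same neurons Calca stood at −0.84 (SE 0.44) with n12 and at −0.17 without it. For a difference by side that itself differs by labelled sex in neurons, 0 of 7 members were called by edgeR (0 unadjusted, 0 by DESeq2) beside 0% of 13981 genes, of which 550 had an unadjusted p under 0.05 and 0 were called by DESeq2.

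By labelled sex, Cartpt in nodose-like neurons was the member that passed the test: 1 of 5 was called beside 0.785% of 12236 genes. Before adjustment 2 of the 5 members had a p under 0.05 in edgeR, as did 1969 of the 12236 genes. DESeq2 gave an adjusted p to 2 of the 5 members and called 241 genes, Cartpt among them. Male-labelled pools ranged from 37.1 (ML2) through 49.9 to 92.9 (MR1) normalised CPM and female-labelled pools from 73.7 (FL1) through 96.0 to 126 (FR1). The groups overlapped through MR1 alone, and the other 5 male-labelled pools lay below every female-labelled pool. The means were 54.7 ± 19.8 and 95.3 ± 17.7 CPM (SD, n = 6 each), and the log2 difference, female over male, was 0.76 (SE 0.14, edgeR's quasi-likelihood test, adjusted p = 0.0165).

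Without ML1 and FL1 the difference was 0.83 (adjusted p = 0.00879, edgeR), and without n12 it was 0.76 (adjusted p = 0.0194). The call was lost when MR2 (adjusted p = 0.0847), MR3 (0.0570), FL2 (0.0528) or FL3 (0.0642) was left out, and it was stronger without MR1 (0.97, adjusted p = 0.000363). The calls over all genes moved in the same runs, from 96 to 2, 3, 10 and 3, and to 434 of 12482 without MR1. Mean levels were higher in female-labelled pools in each of the 6 nodose-like subclusters: 140 against 75.0 CPM in n3, 134 against 88.5 in n6, 69.1 against 41.8 in n1, 47.1 against 26.2 in n9, 102 against 61.9 in n12 and 16.4 against 15.2 in n13, the last well within the SD over pools. The male-labelled and female-labelled pools overlapped in each subcluster. The highest pool was male-labelled in n6 (170 against 142 CPM), n12 (122 against 120) and n13 (50.7 against 31.4) and female-labelled in n1, n3 and n9. The means in n13 were both 16.5 CPM without ML1 and FL1, and in the other 5 subclusters the female-labelled mean stayed 1.49-fold (n6) to 2.10-fold (n9) the male-labelled one.

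Other quantities moved with labelled sex. Subclusters n3 and n6 were picked for this comparison after seeing that Cartpt was highest there. They made up 34.0% of nodose-like neurons in male-labelled pools and 39.4% in female-labelled pools (exact permutation test within side, two-sided, p = 0.010, 400 relabellings). The shares were 34.2% and 40.6% without ML1 and FL1 (exact permutation test, p = 0.0167, 120 relabellings). With the make-up held fixed, a choice made after seeing the data, the ratio of means went from 1.76 (p = 0.010, exact permutation test) to 1.64 (p = 0.020). Leaving out ML1 and FL1, it went from 1.85 (p = 0.0333) to 1.72 (p = 0.050, exact permutation test), also an added choice. Cartpt in non-neuronal nuclei averaged 36.1 ± 17.2 CPM over male-labelled pools against 46.9 ± 13 over female-labelled ones (SD, n = 6 each, p = 0.29, exact permutation test), and 38.2 against 48.4 CPM without ML1 and FL1 (p = 0.433, exact permutation test). The mean over pools of the median UMIs per neuron was 2610 ± 448 and 3400 ± 408 (SD, n = 6 each), or 2490 and 3300 without ML1 and FL1, and the part of depth in the result was not tested beyond thinning. After thinning to 1000 UMIs, 2.26% of male-labelled and 4.11% of female-labelled neurons held a Cartpt UMI (exact permutation test, p = 0.010, adjusted p = 0.180 over 9 members and both factors). These shares were 2.32% and 4.24% without ML1 and FL1 (p = 0.0333, adjusted p = 0.300, exact permutation test). None of those 18 comparisons of shares passed, and without MR1 those of Cartpt and Vip by sex did (adjusted p = 0.045 each, exact permutation test).

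**Figure D4:**
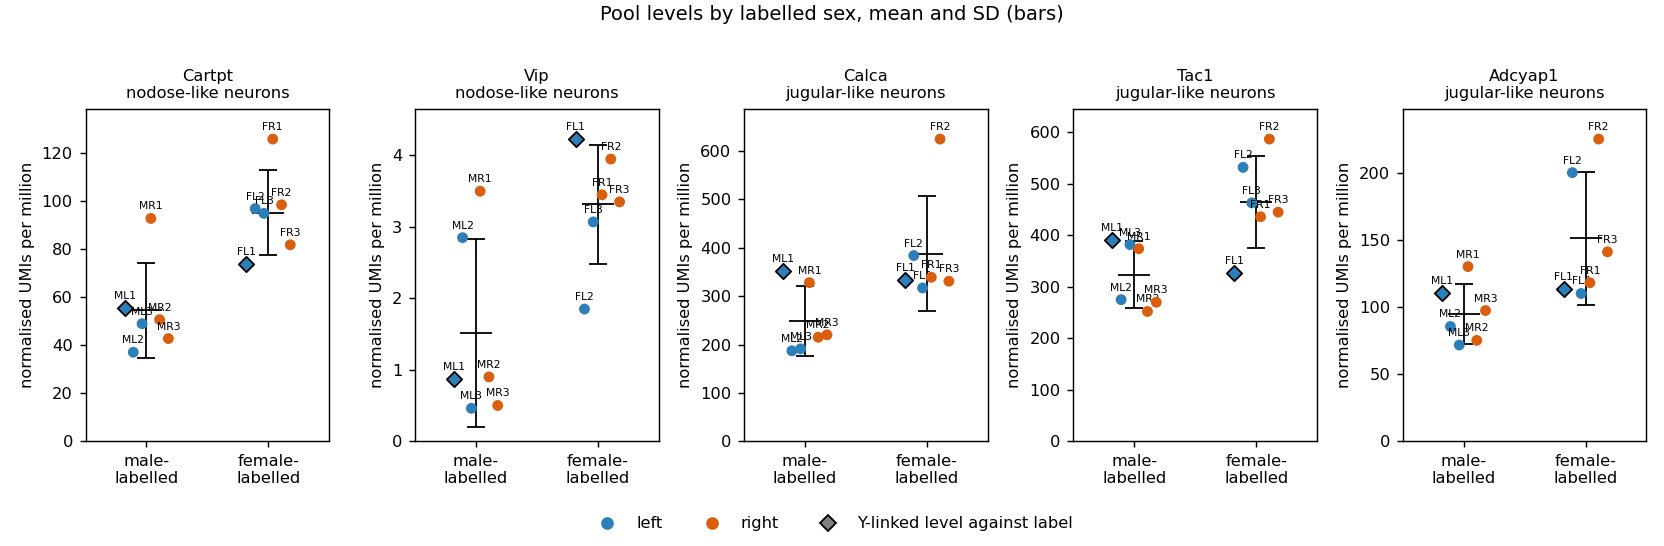
Normalised CPM by labelled sex in each of the 12 pools for Cartpt and Vip in nodose-like neurons and for Calca, Tac1 and Adcyap1 in jugular-like neurons; black marks are means with SD, colours give the side, and diamonds mark ML1 and FL1, whose Y-linked level goes against the label. Male-labelled pools are lower on average in all 5 panels, and in each panel the groups overlap.

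Vip in nodose-like neurons ranged from 0.46 through 0.885 to 3.50 normalised CPM where labelled male and from 1.85 through 3.40 to 4.23 where labelled female. The groups overlapped, and the log2 difference of 1.16 (SE 0.37) did not pass (adjusted p = 0.119, edgeR's quasi-likelihood test). It was 0.93 (adjusted p = 0.266) without ML1 and FL1 and 1.71 (adjusted p = 0.0191) without MR1, a run in which 434 of 12482 genes were called. Counts were low: in all neurons MR1 held 16 Vip UMIs, the other male-labelled pools 1 to 6 and female-labelled pools 13 to 27. The filter on low counts asks for only as many pools as the smallest group holds. Vip could therefore enter the test through female-labelled pools alone. Over all neurons 0 of 7 members were called by labelled sex in edgeR (3 unadjusted) beside 0% of 13981 genes, of which 2664 had an unadjusted p under 0.05. DESeq2 called 398 genes there, Cartpt among them (0.81, adjusted p = 0.0162, against 0.79 and 0.0816 in edgeR), and gave an adjusted p to 4 of the 7 members, Vip not among them. Without ML1 and FL1 edgeR again called 0 of 7 members (3 unadjusted), with Cartpt at 0.81 (adjusted p = 0.133), among 32 of 14013 genes called.

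In jugular-like neurons 0 of 4 members were called by labelled sex in edgeR beside 0.0279% of 7161 genes, and the count turned on the pools whose labels are in doubt. Before adjustment 3 members passed, as did 559 of the 7161 genes. DESeq2 gave an adjusted p to 1330 genes, Calca (0.179) and Tac1 (0.0643) among them but neither Adcyap1 nor Calcb, and called 0 members. Tac1 ranged from 252 through 324 to 390 normalised CPM in male-labelled pools and from 326 through 454 to 587 in female-labelled pools. FL1 at 326 was the female-labelled pool within the male-labelled range, and ML1 at 390 was the highest male-labelled pool. The log2 difference was 0.55 (SE 0.13, edgeR's quasi-likelihood test, adjusted p = 0.121).

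Calca ranged from 187 through 218 to 353 normalised CPM where labelled male and from 317 through 336 to 625 where labelled female, and Adcyap1 from 71.6 through 91.3 to 130 and from 110 through 130 to 225. The differences were 0.53 (SE 0.16, adjusted p = 0.290) and 0.62 (SE 0.17, adjusted p = 0.199) in the same edgeR fit. Without ML1 and FL1 all 3 genes were called, Tac1 at 0.70 (adjusted p = 0.00387), Calca at 0.76 (0.00763) and Adcyap1 at 0.73 (0.0485), among 64 of 7511 genes called by edgeR. Calcb stood at −0.50 (SE 0.29, adjusted p = 0.703), the opposite direction, and at −0.31 (adjusted p = 0.832) without those pools.

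Jugular-like values rest on few nuclei in some pools, since n7 held 20 nuclei in ML3, 28 in FL1 and 35 in FR2. In unnamed neurons 0 of 5 members were called by labelled sex (2 unadjusted, 0 by DESeq2 of the 2 with an adjusted p) beside 0% of 12670 genes (1818 unadjusted, 55 by DESeq2). Adcyap1 stood at 0.47 there (adjusted p = 0.173, edgeR) and Cartpt at 0.38 (0.193). The values were 0.41 (adjusted p = 0.333) and 0.39 (0.325) without ML1 and FL1.

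Of the listed genes of the peptide pathway, 2 of 22 tested processing genes were called higher in female-labelled nodose-like neurons. In that comparison 96 of 12236 genes were called, 59 of them higher. Before adjustment 6 of the 22 genes had a p under 0.05 in edgeR, as did 1969 of the 12236 genes. The 2 called genes were Rab3a, a vesicle GTPase gene (0.48, adjusted p = 0.0312, edgeR), and Pcsk1n, which encodes an inhibitor of a prohormone convertase (0.53, adjusted p = 0.0346). The median log2 difference of these 22 genes was 0.041 and that of all genes −0.0012. Among genes most like Cartpt, Syt15 differed by 0.39 (adjusted p = 0.0428). Without ML1 and FL1 the 3 differences were 0.56, 0.62 and 0.42 (adjusted p = 0.0101, 0.0131 and 0.0278, edgeR), and without n12 they were 0.44, 0.49 and 0.40 (0.0432, 0.0503 and 0.0417). Each of these 3 calls was lost on leaving out ML2, ML3, MR2, MR3, FL2, FL3 or FR1. In those runs the calls over all genes fell from 96 to between 2 (without MR2) and 31 (without ML3). No processing gene was called in the other comparisons by side or by labelled sex. No listed gene of another peptide or of a receptor was called by side or by labelled sex in any of the 4 neuron groupings, in which 1 to 9 of each list could be tested.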

How the data were processed

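Single-nucleus counts of 36741 nuclei were used as deposited by the authors, as whole-number UMI counts per gene with the pool of each nucleus. Per the submitters' processing notes R 4.3.2, Seurat 4.1.3 and the build mRatBN7.2 were used, and the aligner is not given in the sources used here. Summed counts equalled the deposited transcript count in all 36741 nuclei. Whether introns or multiply mapped reads were counted is not given either, and both affect levels in nuclei.

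After removing nuclei below 300 genes or above 5% mitochondrial UMIs, clusters were made with scanpy 1.11.5 (Leiden resolution 1, 30 principal components), without the 9 members. The doublet caller marked 2 nuclei and so did not work, and 1835 kept nuclei with the highest scores were removed as an alternative. Neurons were subclustered, and subclusters were named nodose-like or jugular-like from marker lists by a rule set after the clusters were seen. UMIs were summed per pool and tested with edgeR 4.0.16 (TMM, filterByExpr, side and labelled sex as terms, Benjamini-Hochberg adjustment), with DESeq2 1.42.0 as alternative. The edgeR script was tested on simulated counts with known changes. Shares were tested by exact permutation over pools with scipy 1.17.1. The genes named besides the members are the 3 most like each by Pearson's r among genes with at least 500 UMIs in neurons, listed genes that were called, and the 3 of each list with the highest level in neurons. The members and lists were chosen with earlier results of these data known.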

Additional observations from a re-analysis of the deposited data

Results flagged for a closer look

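Over 84 groups of 6 pools, 11 held a pool whose gap to its nearest neighbour was large against the range of the group by Dixon's criterion, and chance gives about 1 in 20. Among male-labelled pools ML1 was the far highest for Calca in neurons (73.2 normalised CPM), in nodose-like neurons (17.6) and in unnamed neurons (9.19), and for Tac1 in neurons (76.1). In this pool 14.5% of neurons belonged to n7 and Y-linked genes stood at 2.88 CPM. MR1 was the far highest of the male-labelled pools for Cartpt in neurons (52.6) and in nodose-like neurons (92.9), and its non-neuronal nuclei held the highest Cartpt level of all pools, 69.4 CPM.

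FR2 was the far highest for Calca in jugular-like neurons, both among right and among female-labelled pools (625 in each case), with 35 nuclei of n7. FL2 was the far highest of the left pools for Adcyap1 in jugular-like neurons (200) and of the female-labelled pools for Calca in unnamed neurons (6.63). ML2 was the far lowest of the male-labelled pools for Calcb in jugular-like neurons (10.4).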

How the results depend on the processing

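No member was called by side in all neurons, jugular-like or unnamed neurons under any alternative run, nor for the interaction of side and sex. In nodose-like neurons 2 members (Calca and Cartpt) were called by side without a filter on low counts. By labelled sex, the count in all neurons went from 0 to 1 with DESeq2, to 2 without the filter and between 0 and 2 on leaving out single pools (2 without MR1, 1 without FR3). In nodose-like neurons it went from 1 to 2 without the filter and without the highest doublet scores, and between 0 and 2 on leaving out single pools. In jugular-like neurons it went from 0 to 3 without the filter, to 3 without ML1 and FL1, and between 0 and 2 on leaving out single pools (2 without ML1, 1 without FL1). In unnamed neurons it went from 0 to 1 without the filter and between 0 and 2 on leaving out single pools (2 without MR1). For the shares by sex it lay between 0 and 2 (2 without MR1). The edgeR calls by labelled sex over all genes moved as well. In neurons they went from 0 to 555 of 14335 without MR1 and 114 of 14078 without FR3. Nodose-like neurons went from 96 to 434 of 12482 without MR1. Jugular-like neurons went from 2 to 44 of 6894 without ML1, 9 of 7936 without FL1 and 64 of 7511 without both. Unnamed neurons went from 0 to 179 of 12993 without MR1. DESeq2 gave an adjusted p to some of the members only, from 1 of 5 by side in unnamed neurons to all 4 by side in jugular-like neurons and all 7 for the interaction. The cause was not tested.

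Over all neurons the difference by labelled sex changed sign for Calca (−0.27) to 0.39 without ML1, 0.01 without FL1 and 0.56 without both, and ranged from −0.62 (without FL2) to 0.39 on leaving out single pools. For Tac1 (−0.13) it changed to 0.35, 0.12 and 0.52 (from −0.49 without FL2 to 0.35), and to 0.02 in neurons without n7, an alternative chosen after seeing the data. Vip in n19 fell from 15.0 to 4.27 CPM as a mean over pools.

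Counts over all genes depended on the tool and the filter. By labelled sex in neurons edgeR called 0 genes, DESeq2 398 and edgeR without the filter 467; in nodose-like neurons these were 96, 241 and 587, in jugular-like neurons 2, 3 and 59, and in unnamed neurons 0, 55 and 541. By side they were 17, 61 and 41 in neurons, 113, 145 and 283 in nodose-like neurons, 0, 0 and 5 in jugular-like neurons and 0, 14 and 144 in unnamed neurons. Of the 6 left and right pools of the same replicate number and sex, ML2 and MR2 deviated together (r = 0.40) and the other 5 pairs did not (r from −0.15 to 0.03). Left and right pools of 1 sex with different numbers gave r from −0.36 (ML2 and MR1) to 0.30 (ML3 and MR1). Not every same-numbered pair exceeded 0.1, so pools were not treated as paired, and 2 of the same-numbered pairs hold ML1 or FL1, whose labels are in doubt. With the replicate block 0 members were called by side in each grouping, with 3 genes in place of 17 in neurons and 189 in place of 113 in nodose-like neurons. Depth limits Gal, Sst, Nmb and Vip, which had 23, 53, 134 and 150 UMIs in neurons.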
